A study of Mus musculus with 10 samples.

Results

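The cytosolic ribosomal protein genes were taken as every symbol of the table that begins with Rpl or Rps and a number, with the letter endings used for this family, together with Rplp0, Rplp1, Rplp2 and Rpsa. The Rps6k kinases, which modify a ribosomal protein but are not part of the ribosome, were left out. This gave 82 genes of 23969 symbols, 50 of the large and 32 of the small subunit. The filter of at least 1 FPKM (fragments normalised to transcript length and to the size of the library) in at least 2 libraries left 79 of them, 47 of the large and 32 of the small subunit, among 11454 genes tested. The 3 genes that did not pass were Rpl3l, Rpl10l and Rpl39l, relatives of Rpl3, Rpl10 and Rpl39 known from muscle or testis. Rpl10l and Rpl39l were listed at 0 in every library, and Rpl3l at no more than 0.367 FPKM.

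Transcripts were measured by bulk RNA sequencing of GFP-positive cells, isolated by flow cytometry from the proximal jejunum of Lgr5-eGFP-IRES-CreER mice. In these mice the reporter is read from the locus of Lgr5, an R-spondin receptor of the crypt base stem cells, and all groups carried it and received an adenovirus into a vein. The Rspo1 virus (AdRspo1, labelled Rspo GOF, 3 libraries) carried a secreted amplifier of Wnt signalling. The LGR5-ECD virus (AdLGR5 ECD, labelled Rspo LOF, 3 libraries) carried the extracellular domain of the receptor, and the Fc virus (AdFc, 2 libraries) was the control. The labels used here give no age, dose or time after injection. The 2 control columns are headed WT and say nothing of virus or sort. They were taken to be GFP-positive Fc cells because the series text counts 2 control replicates and its title names Lgr5-positive cells. The labels also hold 2 GFP-negative Fc samples, so the count alone does not settle the sort. All values given for Fc depend on this reading. The series calls the samples biological replicates and does not say whether each came from 1 animal.

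Ribosomal proteins fold with ribosomal RNA into the small subunit, which decodes the message, and the large subunit, which joins the amino acids. In most cells their messages are among the most abundant, and they begin with a run of pyrimidines (the 5′ terminal oligopyrimidine or TOP motif) through which growth signalling by mTOR sets their translation. In the intestine the dividing cells at the crypt base have a high demand for ribosomes, while the absorptive cells of the villus no longer divide.

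The sequences around the transcript starts are given first because shared promoter features are one way in which these genes resemble each other apart from their levels. RefSeq promoters (GRCm38.p6) matched 61 of the 82 genes. A run of at least 8 pyrimidines between 30 bases before and 50 bases after the start, read on the coding strand, was found in 80.3% of these 61 genes, against 30.2% of the 8682 tested genes with a promoter and 30.9% of 68 mitochondrial ribosomal protein genes. The motif CCGGAAG, searched on both strands of the whole window of 250 bases before and 50 after the start, was found in 41.0% of the cytosolic and 36.8% of the mitochondrial genes, against 21.1% of the tested genes. CTTTCC, which can lie within a pyrimidine run, was found in 54.1%, against 30.4% of the tested genes. CACGTG was found in 9.84%, against 12.2% of the tested genes, and TATAAA in 9.84%, against 8.6%. The motifs were chosen after expression values had been seen, and a match is a description of the letters only. The examples below run from 60 bases before to 30 bases after the start in GRCm38.p6, with pyrimidine runs of at least 8 and CCGGAAG or its complement in capitals. Rpl27a and Rps10 show the run at the start, Rps28 and Rps4x show windows without one, and Rpl36a and Rpl36al are a pair of paralogs compared further on, whose runs end after the printed stretch.
Rpl27a, chr7:109519135-109519224, plus strand: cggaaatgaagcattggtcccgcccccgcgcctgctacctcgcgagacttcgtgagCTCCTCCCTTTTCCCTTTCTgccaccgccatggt
Rps10, chr17:27635215-27635304, minus strand: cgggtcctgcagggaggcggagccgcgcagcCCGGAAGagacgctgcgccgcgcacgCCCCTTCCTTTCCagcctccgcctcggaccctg
Rps28, chr17:33824533-33824622, minus strand: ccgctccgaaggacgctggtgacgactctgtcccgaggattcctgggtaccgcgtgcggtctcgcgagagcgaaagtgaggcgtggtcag
Rps4x, chrX:102189362-102189451, minus strand: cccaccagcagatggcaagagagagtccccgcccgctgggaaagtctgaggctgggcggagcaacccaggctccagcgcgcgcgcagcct
Rpl36a, chrX:134585594-134585683, plus strand: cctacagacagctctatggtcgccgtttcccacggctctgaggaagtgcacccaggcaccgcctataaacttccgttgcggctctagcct
Rpl36al, chr12:69184038-69184127, minus strand: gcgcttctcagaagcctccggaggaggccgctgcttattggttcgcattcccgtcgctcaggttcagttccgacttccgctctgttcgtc

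The libraries differed in ways that touch the results. The table gave no counts, so sequencing depth is unknown. The third LGR5-ECD library had 11485 symbols above 0, against 13417 to 14197 in the other 7, and Rpl26 and Rpl34 were listed at nearly 0 in it. Among markers of intestinal cell types, the summed level of 4 crypt base genes (Lgr5, Olfm4, Ascl2, Smoc2) ran from 1532 to 1695 FPKM in Rspo1, from 69.8 to 308 in LGR5-ECD and from 355 to 896 in Fc libraries. The summed level of 5 enterocyte genes (Sis, Alpi, Krt20, Fabp1, Apoa1) ran from 68.8 to 97.9, from 424 to 587 and from 142 to 279 FPKM in Rspo1, LGR5-ECD and Fc libraries. The 4 Paneth genes summed to 887 to 1723 FPKM in Rspo1, 1083 to 3315 in LGR5-ECD and 12.2 to 343 in Fc libraries, and the 4 goblet genes to 102 to 257, 378 to 1006 and 172 to 366. Immune markers summed to at most 16.7 FPKM, and mesenchymal and endothelial markers to at most 0.623. In Rspo1 against LGR5-ECD cells all 4 crypt base genes were higher and all 5 enterocyte genes lower by the test used below, and the part of these differences in the results was not tested. Lgr5 itself had 96.4, 113 and 100.2 FPKM in Rspo1, 8.31, 2.84 and 4.28 in LGR5-ECD and 40.6 and 22.0 in Fc libraries. In bulk samples fewer cells of a type and less RNA per cell cannot be told apart.

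Together the 82 genes made up 11.2%, 10.3% and 12.9% of the summed FPKM in the 3 Rspo1 libraries, 7.60%, 7.79% and 6.48% in the 3 LGR5-ECD libraries, and 9.47% and 11.5% in the 2 Fc libraries. FPKM is per length, so this is not a share of reads. Every LGR5-ECD library lay below every library of the other groups, whereas the Rspo1 and Fc libraries overlapped. Each gene was also set against its own mean over the 8 libraries. The median of these deviations, minus the same median over all tested genes, was 0.30, 0.09 and 0.46 on the log2 scale in Rspo1 libraries, −0.33, −0.24 and −0.42 in LGR5-ECD libraries and −0.05 and 0.17 in Fc libraries. The order of the groups was thus the same on this scale, again with one Fc library between the Rspo1 libraries.

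**Figure D1:**
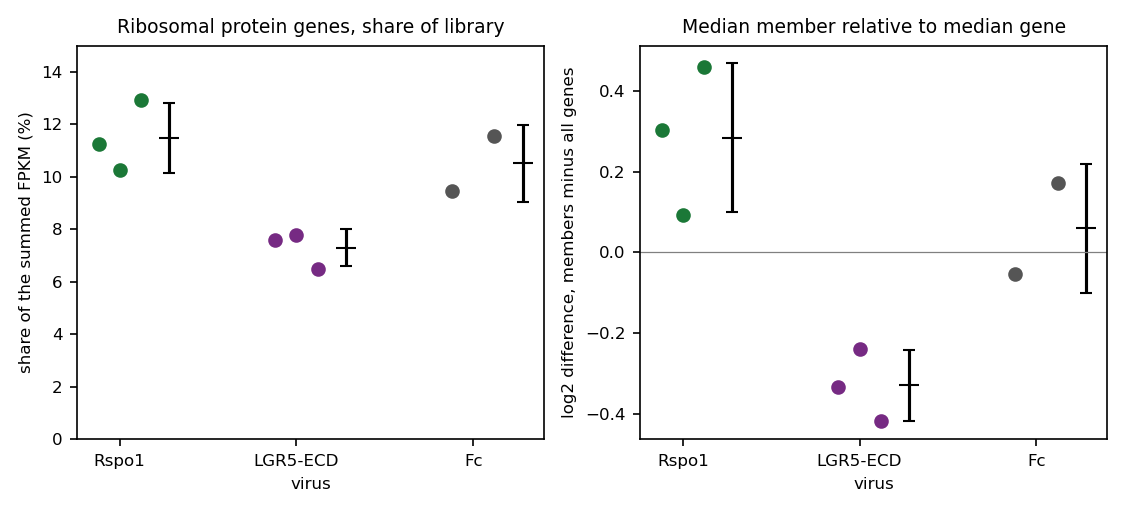
Share of the summed FPKM taken by the 82 ribosomal protein genes (left, in %) and their median deviation minus that of all tested genes (right, log2 scale), with 1 point per library and the group mean ± SD beside the points. The LGR5-ECD libraries sit between 6.48% and 7.79%, below the Rspo1 libraries (10.3% to 12.9%) and the Fc libraries (9.47% and 11.5%).

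In Rspo1 against LGR5-ECD cells, which sets the gain of R-spondin activity against its loss, 25 of the 79 genes were higher and none was lower (limma on log2(FPKM + 1), Benjamini-Hochberg adjusted p under 0.05 over all 11454 genes, here termed called). Of all tested genes 4.92% were called higher and 3.54% lower. At an unadjusted p under 0.05, 65 of the 79 were higher and 2 lower, against 1595 higher and 1023 lower of all 11454 genes. Changes are given as differences of group means of log2(FPKM + 1). The change was positive for 74 of 79 genes, against 6607 of all 11454 tested genes. The median of the 79 was 0.75 on the log2 scale (1.68-fold), against a median of 0.08 over all tested genes. For 67 of the 79 every Rspo1 library lay above every LGR5-ECD library, which held for 18.9% of all tested genes. The subunits had close medians, 0.75 for 47 large subunit genes (12 called) and 0.76 for 32 small subunit genes (13 called). Of the 79 changes 53 lay within 0.25 of the median, and the quartiles were 0.57 and 0.86. The quartiles of all tested genes were −0.23 and 0.41. Those of the 281 other tested genes with a mean of at least 100 FPKM were −0.41 and 0.35. With each library centred on the median of its tested genes, 27 genes were called higher and none lower.

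The count of called genes depended on single libraries. Without the third Rspo1 library it was 3 (and Rpl30 was then called lower), without the first Rspo1 library 5 and without the second 10. Without the first LGR5-ECD library it was 8, without the second 18 (Rps27 was then called lower) and without the third 9, and without either Fc library it was 23. The median change lay between 0.61 and 0.86 in all of these fits. The third Rspo1 library held the highest value of 65 of the 79 genes, and the third LGR5-ECD library the lowest value of 49. This was not counted over all tested genes. Their median deviation from each gene's mean was 0.14 in the third Rspo1, −0.10 in the third LGR5-ECD and −0.18 in the second Fc library.

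**Figure D2:**
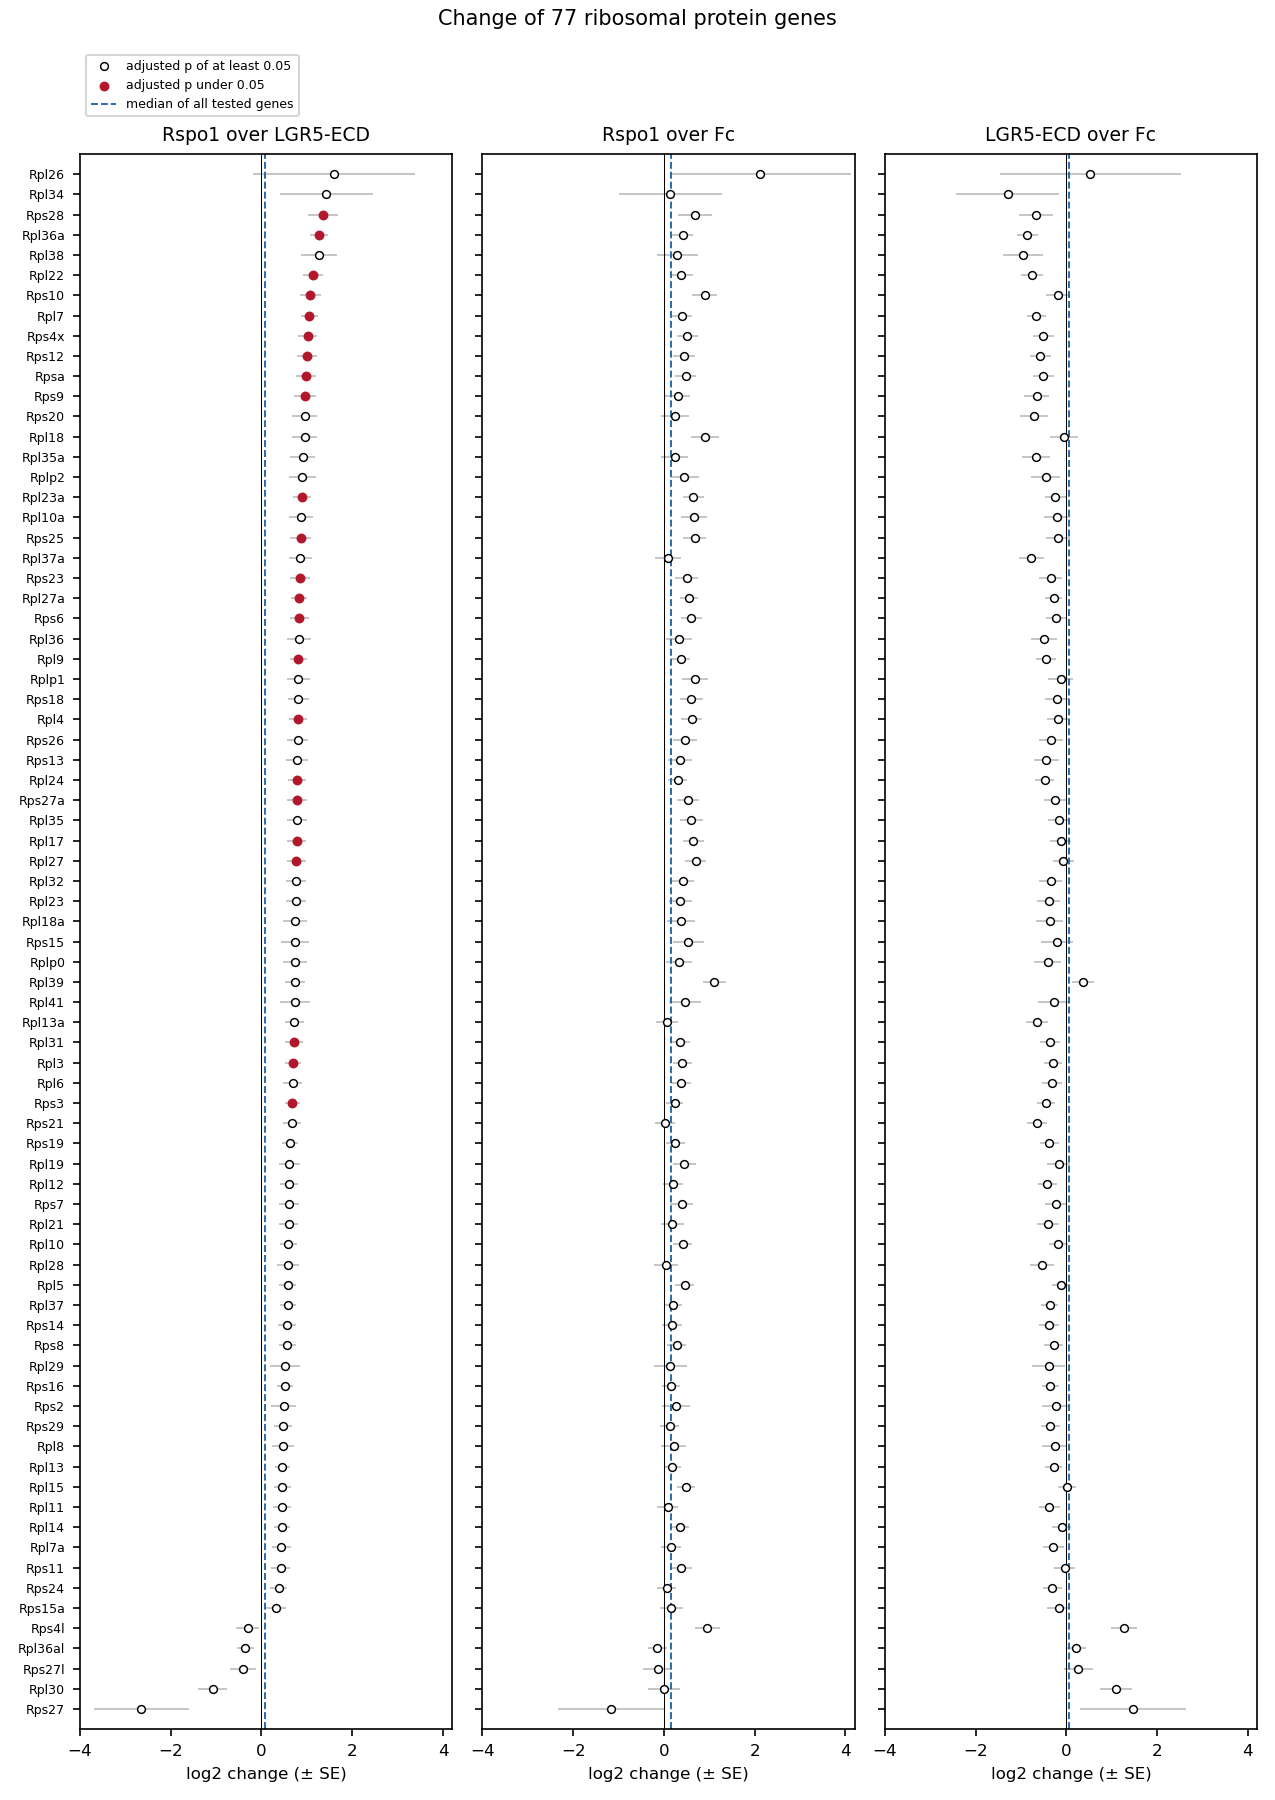
Change of 77 of the 79 tested ribosomal protein genes (log2 scale, ± SE) in the 3 comparisons, ordered by Rspo1 over LGR5-ECD, with called genes filled and the median of all tested genes as a dashed line. Rspo1 over LGR5-ECD holds the filled points, 23 of the 25 called genes, and 5 genes at the bottom lie below 0.

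Rpl36a, a large subunit protein encoded on the X chromosome, stood at 102, 104 and 128 FPKM in Rspo1 libraries, 39.1, 58.7 and 40.2 in LGR5-ECD libraries and 85.3 and 80.6 in Fc libraries. The 3 groups did not overlap, with LGR5-ECD lowest. Rspo1 exceeded LGR5-ECD by 1.27 (SE 0.20, adjusted p = 0.0037) and the gene was called in each of the 8 fits that left out 1 library. Rpl7, another large subunit protein, stood at 304, 255 and 371 FPKM in Rspo1, 133, 165 and 143 in LGR5-ECD and 230 and 234 in Fc libraries. It too showed the groups apart in that order, changed by 1.06 (SE 0.20, adjusted p = 0.00876) and was called in all 8 such fits. Rpl22, which lies on the outer face of the large subunit and can be lost without stopping translation, had 43.3, 32.6 and 46.4 FPKM in Rspo1, 16.3, 22.5 and 15.1 in LGR5-ECD and 35.6 and 26.4 in Fc libraries. Its Rspo1 and Fc libraries overlapped; Rspo1 over LGR5-ECD was 1.14 (SE 0.22, adjusted p = 0.011), called in 7 of the 8 fits.

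Among small subunit genes the largest called change was that of Rps28, with 242, 165 and 288 FPKM in Rspo1, 89.4, 137 and 55.2 in LGR5-ECD and 116 and 170 in Fc libraries (1.35, SE 0.33, adjusted p = 0.0304, called in 4 of the 8 fits). Its libraries were spread widely within each group. Rps10 had 723, 557 and 773 FPKM in Rspo1, 242, 371 and 364 in LGR5-ECD and 324 and 408 in Fc libraries (1.08, SE 0.24, adjusted p = 0.0206). Here the Fc and LGR5-ECD libraries overlapped, and all Rspo1 libraries lay above both. Rps4x, the X-linked S4 protein, had 359, 233 and 308 FPKM in Rspo1, 152, 139 and 144 in LGR5-ECD and 188 and 227 in Fc libraries (1.02, SE 0.20, adjusted p = 0.0127, called in 6 of 8 fits). Rps12 had 210, 219 and 258 FPKM in Rspo1, 122, 127 and 92.6 in LGR5-ECD and 139 and 205 in Fc libraries (1.01, SE 0.21, adjusted p = 0.0166, called in 6 of 8 fits). In both genes Fc lay between the other 2 groups with no overlap. Rpsa, which is also known as the laminin receptor precursor, had 235, 243 and 265 FPKM in Rspo1, 140, 146 and 94.0 in LGR5-ECD and 158 and 199 in Fc libraries (0.99, SE 0.21, adjusted p = 0.0177).

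Rps6, the substrate of the S6 kinases downstream of mTOR, had 805, 635 and 827 FPKM in Rspo1, 426, 471 and 372 in LGR5-ECD and 521 and 464 in Fc libraries. Only its Rspo1 libraries stood clear of the rest; its change was 0.83 (SE 0.21, adjusted p = 0.0345, called in 2 of the 8 fits). Rpl3, which reaches into the peptidyl transferase centre where peptide bonds form, had 339, 356 and 381 FPKM in Rspo1, 220, 207 and 232 in LGR5-ECD and 294 and 246 in Fc libraries (0.70, SE 0.18, adjusted p = 0.0354, called in 2 of the 8 fits). Its replicates were close in both treated groups. Rpl27a had 96.1, 92.1 and 79.1 FPKM in Rspo1, 42.6, 55.7 and 50.3 in LGR5-ECD and 63.5 and 57.0 in Fc libraries (0.84, SE 0.18, adjusted p = 0.016, called in 5 of the 8 fits). Rps27a, which is made as a fusion with ubiquitin, had 135, 83.9 and 124 FPKM in Rspo1, 60.7, 60.2 and 74.2 in LGR5-ECD and 69.2 and 85.6 in Fc libraries, and its adjusted p lay just under the threshold. Rps9 was called only with all 8 libraries. Further called genes included Rps3, Rps23, Rps25, Rpl4, Rpl9, Rpl17, Rpl23a, Rpl24, Rpl27 and Rpl31.

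The stalk proteins Rplp0, Rplp1 and Rplp2, which recruit elongation factors, had differences of 0.75 to 0.90 on the log2 scale with none called. Rplp0, often used as a reference gene in quantitative PCR, had 497, 658 and 932 FPKM in Rspo1, 418, 473 and 327 in LGR5-ECD and 560 and 508 in Fc libraries (0.75, SE 0.26, adjusted p = 0.115). Its Rspo1 values ran widely and took in both Fc values. Rpl5 and Rpl11, which bind 5S RNA and can restrain Mdm2, had changes of 0.58 (SE 0.18, adjusted p = 0.0817) and 0.46 (SE 0.20, adjusted p = 0.21). Rpl11 had 454, 469 and 578 FPKM in Rspo1, 404, 373 and 314 in LGR5-ECD and 499 and 441 in Fc libraries. Rps19, known from Diamond-Blackfan anaemia, had 142, 132 and 187 FPKM in Rspo1, 98.7, 103 and 92.0 in LGR5-ECD and 128 and 127 in Fc libraries (0.63, SE 0.18, adjusted p = 0.0625). These groupings were made after values had been seen. The most abundant member, Rpl41, had 2316, 2225 and 4040 FPKM in Rspo1, 1641, 2185 and 1245 in LGR5-ECD and 1947 and 2033 in Fc libraries, and the second Rspo1 and second LGR5-ECD libraries nearly met (0.74, SE 0.32, adjusted p = 0.2). Rps15, Rps2 and Rpl28, the next in abundance, had differences of 0.75, 0.49 and 0.59 and were not called. Rpl37a had a difference of 0.86 (SE 0.25, adjusted p = 0.0642), Rpl38 one of 1.26 (SE 0.40, adjusted p = 0.0814) and Rpl10, which helps to form the peptidyl transferase centre, one of 0.60 (SE 0.19, adjusted p = 0.078). The least abundant of the tested members, Rps15a, had 7.57, 7.93 and 6.69 FPKM in Rspo1, 5.88, 5.26 and 5.96 in LGR5-ECD and 8.24 and 5.10 in Fc libraries.

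**Figure D3:**
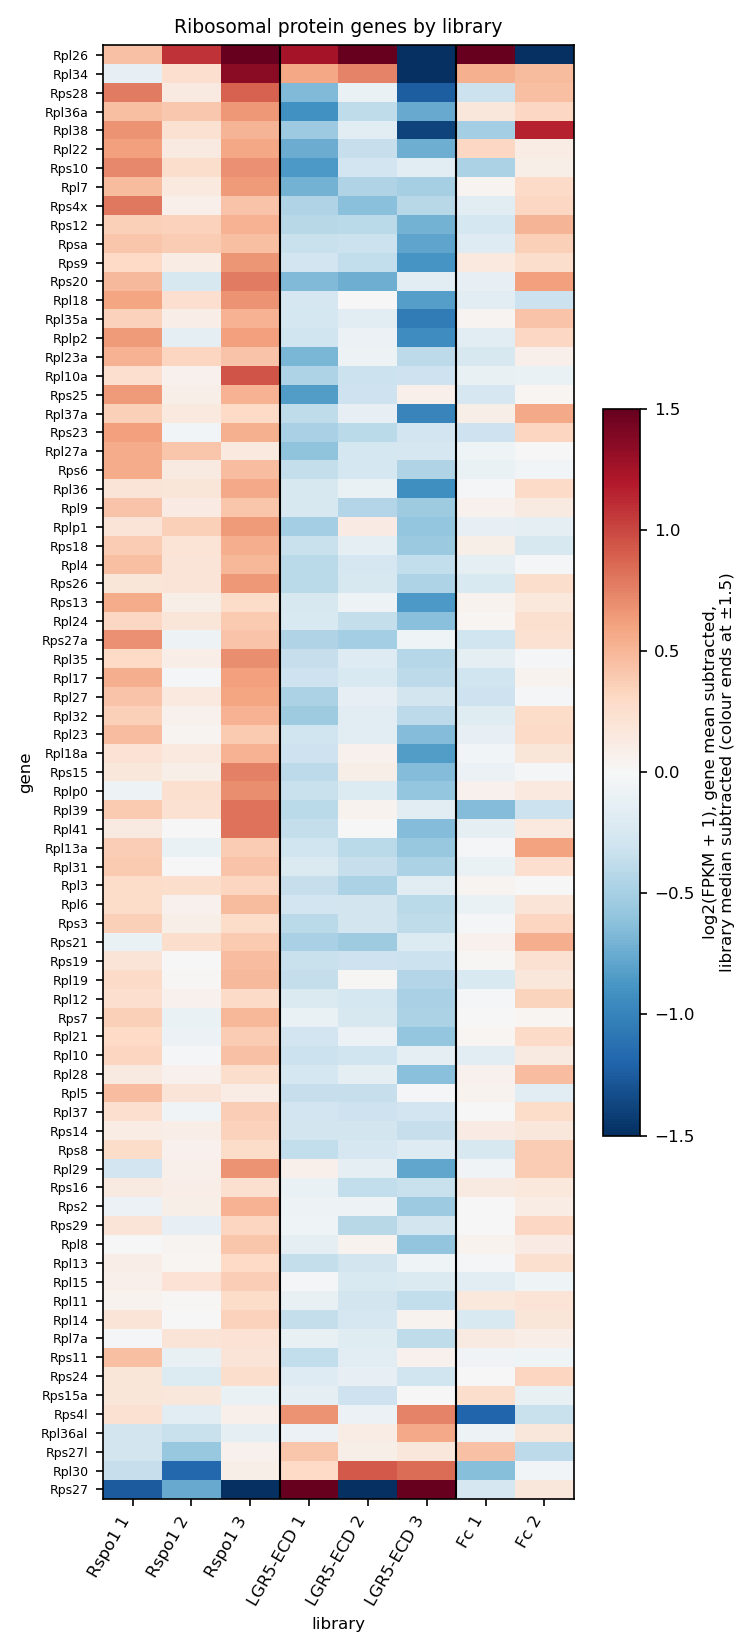
Level of 77 of the 79 genes in each library as log2(FPKM + 1) minus the gene's mean and the library's median deviation, with colour ends at ±1.5. The Rspo1 columns are mostly above 0, the LGR5-ECD columns mostly below, and the Fc columns between them.

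Over the group means of FPKM, 71 of the 79 genes had the order Rspo1, Fc, LGR5-ECD from high to low. This order was not counted over all tested genes, so no share can be set beside it. LGR5-ECD was highest for 5 genes, Rps27, Rpl30, Rps27l, Rpl36al and Rps4l, none of them called. Rpl39 and Rpl15 had Fc lowest. Rpl26 is given no place in this order, because its means rest on libraries listed at nearly 0.

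Rps27 had the largest change against the direction of the family, and a copy of it is listed separately. It had 1.05, 2.07 and 0.258 FPKM in Rspo1, 17.2, 0.533 and 69.2 in LGR5-ECD and 3.18 and 3.83 in Fc libraries (−2.65, SE 1.04, adjusted p = 0.158). The table also listed Rps27rt, a retrogene copy looked up after the values had been seen, at 235, 180 and 221 FPKM in Rspo1, 80.6, 89.1 and 0.128 in LGR5-ECD and 117 and 97.2 in Fc libraries. In the third LGR5-ECD library, where Rps27 was highest, Rps27rt was nearly at 0. The sum of both was 236, 182 and 221 FPKM in Rspo1, 97.8, 89.6 and 69.3 in LGR5-ECD and 120 and 101 in Fc libraries. The summed values did not overlap between groups, and with the sum in place of Rps27 the change was 1.31 and called (adjusted p = 0.00292), the reverse of the sign of Rps27 alone. With members summed with their listed copies in this way (Rpl14, Rpl31, Rpl34, Rplp2, Rps15a, Rps19 and Rps27 had one or more), 26 genes were called higher and none lower.

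Rpl34 was likewise listed mostly under its copy. Rpl34 itself had 13.4, 18.9 and 43.0 FPKM in Rspo1, 22.6, 26.2 and 0.000112 in LGR5-ECD and 22.3 and 18.1 in Fc libraries. Summed with Rpl34-ps1 it had 147, 132 and 225 FPKM in Rspo1, 101, 151 and 40.5 in LGR5-ECD and 123 and 78.5 in Fc libraries, and the groups still overlapped. Rpl26 was listed at 29.9, 50.1 and 76.7 FPKM in Rspo1, 53.4, 80.9 and 0.00224 in LGR5-ECD and 129 and 0.000637 in Fc libraries. The values near 0 are given as listed, and no level is read from them.

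Rpl30 had 14.1, 7.99 and 21.3 FPKM in Rspo1, 22.7, 36.6 and 30.7 in LGR5-ECD and 11.6 and 15.3 in Fc libraries. It was the one gene of the family with every Rspo1 library below every LGR5-ECD library (−1.07, SE 0.32, adjusted p = 0.0635). Among all 11454 tested genes 1385 had the libraries apart in that direction. Rpl30 was called lower without the third Rspo1 library (−1.39, adjusted p = 0.0358), with quantile normalization (−1.11, adjusted p = 0.0489) and with library quality weights (−1.13, adjusted p = 0.0358). RefSeq names 10 pseudogenes of Rpl30. It names more for some genes called higher, with 23 each for Rps12 and Rpl31, 13 for Rpl23a, 12 for Rpsa and 11 for Rpl17. For other called genes, among them Rps28, Rps3, Rps9, Rpl4 and Rpl24, it names 0. How the authors' counting shared reads with pseudogenes is unknown, for Rpl30 and for the called genes alike. Rps4l, a transcribed pseudogene in RefSeq, had 22.9, 18.1 and 22.6 FPKM in Rspo1, 31.4, 18.8 and 30.7 in LGR5-ECD and 8.07 and 13.2 in Fc libraries. Both treated groups lay above Fc, by 0.96 for Rspo1 (SE 0.28, adjusted p = 0.123) and 1.27 for LGR5-ECD (SE 0.28, adjusted p = 0.0762).

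The paralogs Rpl36a and Rpl36al encode nearly the same protein. Rpl36al had 49.1, 50.02 and 59.7 FPKM in Rspo1, 56.5, 66.9 and 82.7 in LGR5-ECD and 57.7 and 58.9 in Fc libraries (−0.36, SE 0.19, adjusted p = 0.291). The ratio of Rpl36a to Rpl36al was 2.08, 2.08 and 2.15 in Rspo1, 0.692, 0.878 and 0.485 in LGR5-ECD and 1.48 and 1.37 in Fc libraries. Rpl36a was the higher of the pair in Rspo1 and Fc cells and the lower in LGR5-ECD cells. The log2 ratio differed between Rspo1 and LGR5-ECD by 1.66, with p = 0.1 in a two-sided exact permutation test, the smallest that 3 against 3 libraries allow, and 0.3 adjusted over 3 pairs. Rpl22l1, the paralog of Rpl22, had 9.16, 11.6 and 9.86 FPKM in Rspo1, 8.34, 6.42 and 9.57 in LGR5-ECD and 3.88 and 2.53 in Fc libraries. Both treated groups stood above Fc, and the change in Rspo1 over Fc was called (1.43, SE 0.26, adjusted p = 0.0314), while LGR5-ECD over Fc was 1.12 (SE 0.26, adjusted p = 0.084). The ratio of Rpl22 to Rpl22l1 was 4.73, 2.81 and 4.70 in Rspo1, 1.96, 3.51 and 1.58 in LGR5-ECD and 9.18 and 10.4 in Fc libraries (exact permutation p = 0.2 for Rspo1 against LGR5-ECD). Rps27l, a paralog of Rps27 induced by p53, had 15.5, 13.3 and 21.9 FPKM in Rspo1, 25.8, 20.9 and 19.8 in LGR5-ECD and 26.8 and 12.3 in Fc libraries, with every pair of groups overlapping.

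**Figure D4:**
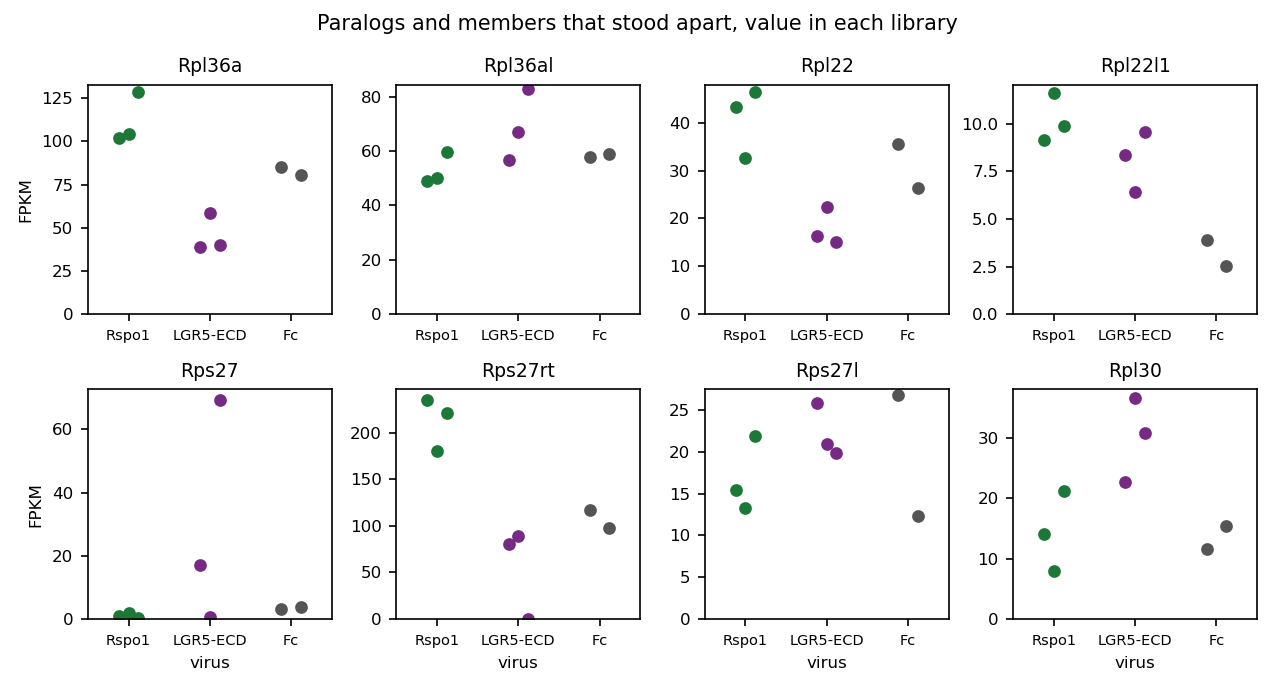
FPKM in each library for the paralogs Rpl36a and Rpl36al, Rpl22 and Rpl22l1, for Rps27, its copy Rps27rt and its paralog Rps27l, and for Rpl30, with 1 point per library. Rpl36a is lowest in LGR5-ECD while Rpl36al is not, and Rps27 and Rps27rt change places in the third LGR5-ECD library.

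In Rspo1 against Fc cells none of the 79 genes was called higher or lower by limma, where 0.672% of all tested genes were called higher and 0.576% lower. At an unadjusted p under 0.05, 19 were higher and none lower, against 1372 higher and 583 lower of all 11454 tested genes. The change was positive for 76 of the 79, against 7208 of all 11454 tested genes. Of the 79, 66 lay above the median of all tested genes. The median of the 79 was 0.38, against 0.16 over all tested genes. With quantile normalization, however, the median was −0.0088 and 36 of the 79 were positive. The 281 other tested genes with a mean of at least 100 FPKM had a median of 0.27. Of these 281 genes 75 were higher and 11 lower at an unadjusted p under 0.05. All Rspo1 libraries lay above both Fc libraries for 45 of the 79 genes, where 26.2% of all tested genes did so. Rpl39, an X-linked protein of the exit tunnel, came nearest to a call. It had 172, 163 and 253 FPKM in Rspo1, 99.0, 140 and 108 in LGR5-ECD and 85.1 and 91.5 in Fc libraries (Rspo1 over Fc 1.11, SE 0.25, adjusted p = 0.0558). It was called without the third LGR5-ECD library (adjusted p = 0.0425) and with a filter at 5 FPKM (adjusted p = 0.0468). Rps10 followed the same direction with 0.90 (SE 0.27, adjusted p = 0.13).

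In LGR5-ECD against Fc cells again none of the 79 was called higher or lower by limma, where 0.445% of all tested genes were called higher and 0.271% lower. At an unadjusted p under 0.05, 2 were higher and 13 lower, against 1184 higher and 752 lower of all 11454 tested genes. The change was negative for 71 of the 79, against 5245 of all 11454 tested genes. The median of the 79 was −0.33, against 0.05 over all tested genes. For 39 of the 79 every LGR5-ECD library lay below both Fc libraries, against 12.7% of all tested genes. Rpl36a was at −0.86 (SE 0.23, adjusted p = 0.113), Rpl22 at −0.76 (SE 0.25, adjusted p = 0.175) and Rpl7 at −0.66 (SE 0.22, adjusted p = 0.18). Rpl36a and Rpl7 were called lower with quantile normalization (adjusted p = 0.0216 and 0.0384), and these and Rpl22 were called lower where libraries were scaled to the sum of all other genes. Both comparisons with Fc, and the one between the viruses, share libraries, so their values for a gene are not independent.

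Other genes of translation were described by lists. One list held 25 genes of elongation factors and other messages known as TOP messages, and the motif was not counted in it. Of these 25, 6 were called higher with the Rspo1 virus than with LGR5-ECD and none lower. All 25 were positive, with a median of 0.60. Eef1b2, an exchange factor of elongation factor 1, had 73.4, 58.7 and 89.2 FPKM in Rspo1, 35.3, 45.0 and 31.6 in LGR5-ECD and 35.9 and 44.1 in Fc libraries (0.96, SE 0.21, adjusted p = 0.0202). The others called were Pabpc1, the poly(A)-binding protein, Nap1l1, a histone chaperone, the splicing factor Hnrnpa1, and the initiation factor subunits Eif3f and Eif3h. Against Fc the median of this list was 0.60 in Rspo1 and −0.16 in LGR5-ECD cells, with none called in either by limma (15 higher and 1 lower, and 0 higher and 1 lower, at an unadjusted p under 0.05). Eef1a1, which delivers aminoacyl-tRNA to the ribosome, was not called (0.77, SE 0.26, adjusted p = 0.103). Nor were Eef2, the translocase (0.68, SE 0.23, adjusted p = 0.104), Tpt1 (0.56, SE 0.22, adjusted p = 0.152) and the nucleolar chaperone Npm1 (0.55, SE 0.19, adjusted p = 0.115).

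A further list held ribosomal proteins under other names together with close relatives, not all of which are ribosomal proteins. Its 9 tested genes had a median of 0.60 in Rspo1 over LGR5-ECD. None was called by limma (3 higher and 0 lower at an unadjusted p under 0.05), and in Rspo1 over Fc 1 was called, Rpl22l1. Gnb2l1, the RACK1 scaffold of the small subunit, had 499, 436 and 567 FPKM in Rspo1, 260, 373 and 268 in LGR5-ECD and 348 and 342 in Fc libraries (0.75, SE 0.21, adjusted p = 0.0559). Fau, made as a fusion with a ubiquitin-like protein, had a difference of 0.60 (SE 0.28, adjusted p = 0.237) and Rpl7l1, a relative of Rpl7, one of 0.12 (SE 0.17, adjusted p = 0.735). By contrast, 77 mitochondrial ribosomal protein genes had a median of −0.07, 36 genes of ribosome biogenesis 0.07 and 29 initiation factors 0.04 (a list without the subunits counted above among the TOP messages, such as Eif3f and Eif3h), with none called in either direction by limma. At an unadjusted p under 0.05, 1 mitochondrial gene was higher and 7 lower, and 3 biogenesis genes were higher and 2 lower. Of the initiation factors 1 was higher and 1 lower. Among all 11454 tested genes 1595 were higher and 1023 lower at that threshold. The biogenesis factors Ncl and Fbl, which act in the nucleolus, had differences of 0.46 (SE 0.19, adjusted p = 0.189) and 0.24 (SE 0.18, adjusted p = 0.455). The 7 tested S6 kinase genes had a median of −0.05, with none called (0 higher and 1 lower at an unadjusted p under 0.05). A list of messages of like abundance was made after values had been seen. In Rspo1 over LGR5-ECD these 281 other genes with a mean of at least 100 FPKM had a median of −0.01, with 13 called higher and 22 lower. Their median was 0.27 in Rspo1 over Fc and 0.29 in LGR5-ECD over Fc. Differences between these lists were not tested.

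**Figure D5:**
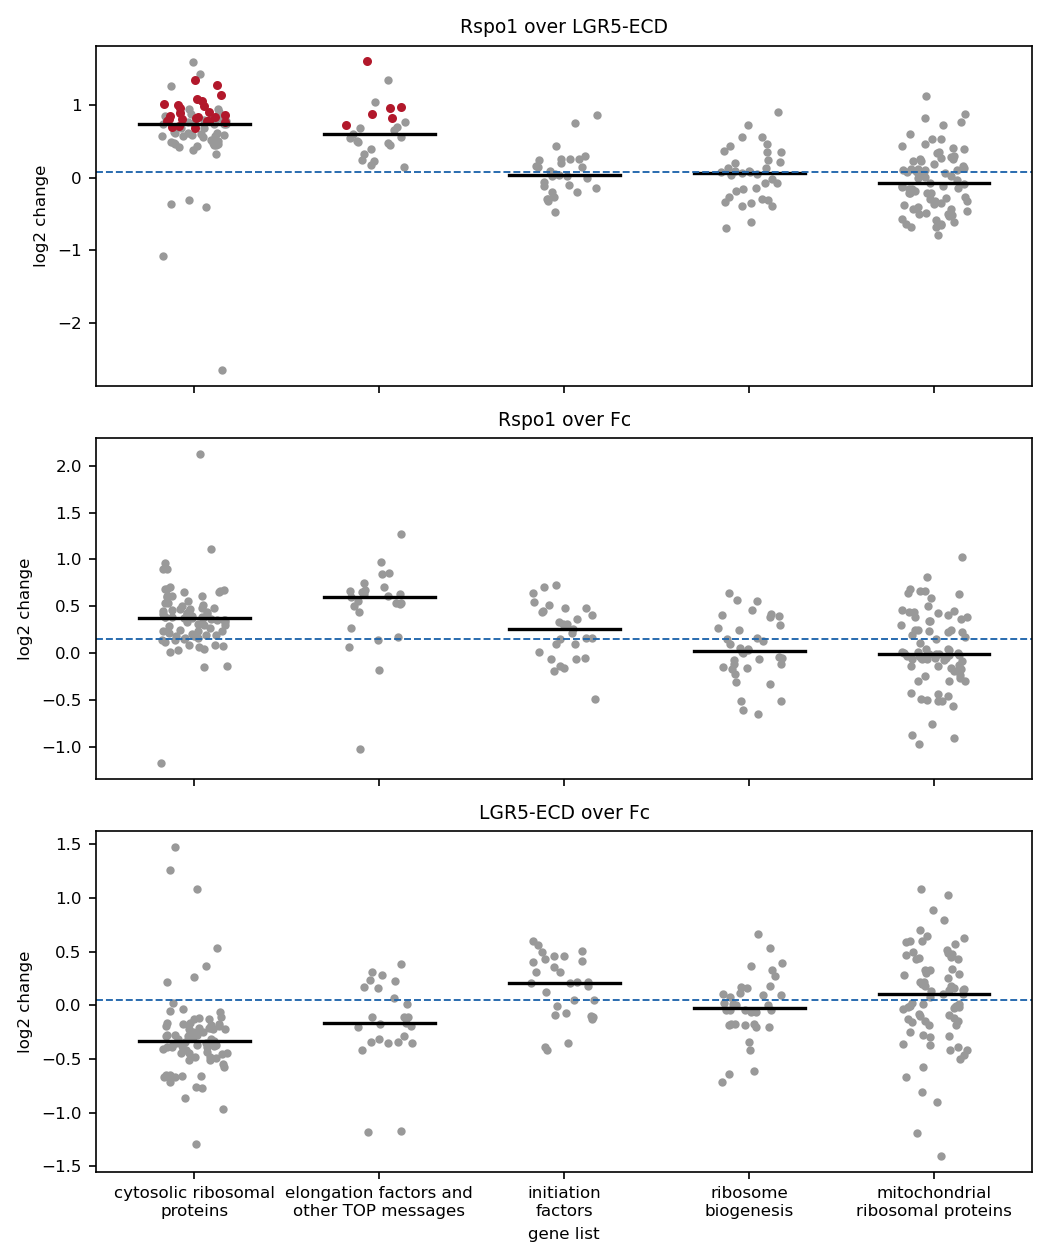
Change of each tested gene (log2 scale) in 5 lists for the 3 comparisons, with called genes in red, the list median as a black line and the median of all tested genes as a dashed line. In Rspo1 over LGR5-ECD the cytosolic ribosomal proteins (median 0.75) and TOP messages (0.60) lie above the dashed line at 0.08, and the initiation, biogenesis and mitochondrial lists around it.

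The pyrimidine run was no more frequent among the called genes than in the rest of the family. Of the 18 called genes with a RefSeq promoter 11 had a run (61.1%), against 36 of 40 genes that were not called (90%). Rps28 and Rps4x, whose windows are printed above, were called without one, while Rpl11 and Rpl34 had one and were not called. RefSeq gives several starts for some of these genes, so the start used in these cells may lie elsewhere.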

How the data were processed

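Per the labels, total RNA of sorted cells was sequenced in bulk. Per the submitters' processing notes, the tools were TopHat, Cufflinks, HTSeq and DESeq2 and the build was mm9; for their versions, roles, annotation and strandedness, not given in the sources used here, nothing was assumed. The deposited values are FPKM made by the authors, in 1 table of 24510 rows and 8 libraries; depth is unknown, and 2 GFP-negative samples of the Fc group are not analysed here. From the table, 27 rows with a date for a symbol and 391 identical repeats were dropped, and 89 symbols on several rows were summed (no ribosomal protein gene among them), which left 23969 symbols. Genes with at least 1 FPKM in at least 2 libraries (11454) were fitted as log2(FPKM + 1) with limma 3.58.1 (eBayes with trend) in R 4.3.3, with 3 groups and 5 residual degrees of freedom. Changes are on that scale, which understates those of low genes; SE is the moderated standard error. Two-sided p-values were adjusted by the Benjamini-Hochberg method across the 11454 genes, with calls made under 0.05. The fit was also run on simulated data with independent noise in each gene, which does not cover shifts shared by the genes of a library.

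The genes, lists and tests were chosen with earlier results of these data known. Genes named in the text were, in each comparison, up to 8 called members with the largest change in each direction, up to 4 in the direction of fewer calls, the 4 most and 4 least abundant, and further genes of known role irrespective of their change; others named were chosen after their values were seen. Some genes are not reported here. Alternatives were another pseudocount, 2 other filters, 4 scalings, fits of 2 groups only, library weights, a replicate block and leaving out each library; leaving out libraries after median centring, and summing members with listed copies, were added after seeing the data. The exact permutation test was run with SciPy. Promoters are from RefSeq (GRCm38.p6), another build than that of the expression values, and were matched by symbol. Python 3.11.15 was used with pandas 2.3.3, NumPy 2.4.6 and matplotlib 3.10.9.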

Additional observations from a re-analysis of the deposited data

How the results depend on the processing

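For Rspo1 over LGR5-ECD, where 25 ribosomal protein genes were called higher, the count was 9 with no filter, 44 when libraries were scaled to the sum of other genes, 38 with library quality weights and 3 with a replicate block. It ran from 3 to 30 in the fits that left out 1 library, as deposited or median-centred. One gene, Rpl30, was called lower with quantile normalization (1) and with weights (1). Without single libraries 0 to 1 were called lower, Rpl30 without the third Rspo1 library and Rps27 without the second LGR5-ECD library. Of all genes 1605 were called with weights, 586 with the block and 414 to 1157 without single libraries, against 968. The median change of the family was 0.57 to 0.86 without single libraries. The same-numbered Rspo1 and LGR5-ECD libraries did not deviate together (correlations of −0.02, −0.02 and −0.05). With 3 libraries per group this cannot decide whether equal numbers belong together, and the labels used here do not say. The control columns carry no number of the labels.

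For Rspo1 over Fc, Rpl39 was the 1 gene called higher with a filter at 5 FPKM, and 0 to 1 were called without single libraries. All genes called, 143 in the fit reported, were 74 with a pseudocount of 0.1, 29 with no filter, 215 with median-centred libraries, 293 with quantile normalization, 280 scaled to the sum of other genes, 217 with the 2 groups alone and 20 to 464 without single libraries. The split of 77 higher and 66 lower became 94 and 121 with median centring, 84 and 121 with median-of-ratios scaling, 120 and 173 with quantile normalization and 78 and 202 scaled to other genes. The median of the family was 0.20 with median-of-ratios scaling, −0.0088 with quantile normalization, 0.11 scaled to other genes and 0.14 to 0.47 without single libraries. Over all tested genes the median, 0.16 in the deposited values, was 0.03 with median centring, 0.01 with median-of-ratios scaling, 0.01 with quantile normalization and −0.07 scaled to other genes.

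For LGR5-ECD over Fc, 2 genes were called lower with quantile normalization and 3 scaled to other genes. All genes called, 82 in the fit reported, were 12 with the smaller pseudocount, 4 with no filter, 142 scaled to other genes, 4 with the 2 groups alone, 26 with weights and 0 to 175 without single libraries. The split of 51 higher and 31 lower became 50 and 45 with median centring, 45 and 47 with median-of-ratios scaling, 52 and 56 with quantile normalization and 41 and 101 scaled to other genes. The median of the family was −0.60 with quantile normalization, −0.60 scaled to other genes and −0.51 to −0.23 without single libraries.

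Some named genes that were not called changed sign. In Rspo1 over Fc with median centring Rpl11 was −0.039, Rpl28 −0.079, Rpl30 −0.11 and Rpl37a −0.034. With median-of-ratios scaling Rpl11 was −0.097, Rpl28 −0.14, Rpl30 −0.16, Rpl34 −0.033 and Rpl37a −0.092. With quantile normalization Rpl10 was −0.0083, Rpl11 −0.32, Rpl28 −0.25, Rpl30 −0.15, Rpl34 −0.028, Rpl37a −0.31, Rpl38 −0.066, Rpl41 −0.24, Rplp0 −0.077, Rps19 −0.057 and Rps2 −0.11. Scaled to other genes Rpl11 was −0.19, Rpl28 −0.23, Rpl30 −0.24, Rpl34 −0.12, Rpl37a −0.18, Rps15a −0.075 and Rps19 −0.019, and with weights Rpl30 was −0.096. In LGR5-ECD over Fc, Rpl36al was −0.046 scaled to other genes. Summed with Rps27rt, Rps27 was 1.31 in Rspo1 over LGR5-ECD, 0.93 in Rspo1 over Fc and −0.38 in LGR5-ECD over Fc. Without single libraries, in Rspo1 over LGR5-ECD Rpl34 ran from −0.16 to 2.26. In Rspo1 over Fc Rpl11 ran from −0.12 to 0.17, Rpl28 from −0.27 to 0.13, Rpl30 from −0.39 to 0.35, Rpl34 from −0.41 to 0.49, Rpl37a from −0.26 to 0.22, Rpl38 from −0.64 to 1.02, Rps12 from −0.063 to 0.72, Rps15a from −0.17 to 0.46, Rps2 from −0.025 to 0.44 and Rps27l from −0.69 to 0.40. In LGR5-ECD over Fc Rpl34 ran from −2.15 to 0.26, Rpl36al from −0.0090 to 0.35, Rpl5 from −0.34 to 0.10, Rplp1 from −0.42 to 0.045, Rps10 from −0.51 to 0.018, Rps15 from −0.48 to 0.0042, Rps15a from −0.47 to 0.13 and Rps27l from −0.27 to 0.79. The cause of these changes was not tested. With Fc reduced to 1 library its spread was taken from the other groups.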
